A study of Rattus norvegicus with 8 samples.

Results

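Collagen genes were defined by symbol as Col, a number, a and a number, and 43 of the 32623 genes in the count tables met this rule. The rule used no measured value. Of the 43 genes, 42 had at least 1 unique molecular identifier (UMI, a tag that marks a single captured transcript) in the cells kept here, and Col23a1 had 0. The data were single-cell RNA sequencing profiles from the spinal cord of 8-week-old female Wistar rats, collected 7 days after surgery. In the mild, moderate and severe groups a 10 g weight was dropped on the exposed thoracic cord from 12.5, 25 and 50 mm, and the sham group had the vertebral lamina removed without contusion; all 4 groups therefore shared the laminectomy. Each group had 2 libraries, and a 10-mm length of cord was taken. The labels did not say whether a library held 1 animal, so p-values measure the spread between libraries, with 2 per group.

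Collagens are extracellular matrix proteins built from 3 chains wound into a triple helix, and each gene encodes a single chain. Fibrillar collagens such as types I and III form the tension-bearing fibrils of connective tissue and of scars, type IV forms the sheet-like network of basement membranes around vessels, and other types attach to fibrils, span the cell membrane or form short networks. In the uninjured cord most collagen lies in the meninges and around blood vessels, and after contusion a fibrotic scar holding fibrillar collagen forms in the lesion.

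The 43 genes comprised 11 fibrillar chains, 9 fibril-associated chains, 6 basement membrane chains, 5 beaded filament chains, 4 transmembrane chains, 3 short-chain network chains, 2 multiplexins and 3 anchoring and other chains. Each transcript was counted once at its 3′ end, so a level does not scale with transcript length. Levels are CPM, a gene's UMIs relative to all UMIs of the summed cells of a library and type.

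The 6 basement membrane genes lie as 3 head-to-head pairs, and promoters of the first 4 are shown because these 4 genes were the ones in which endothelial cells exceeded fibroblasts. In the RefSeq table (assembly GRCr8, a different build from the Rnor_6.0 used for the counts) Col4a1 and Col4a2 start 76 bases apart on chromosome 16, Col4a3 and Col4a4 start 412 bases apart on chromosome 9, and Col4a5 and Col4a6 start 1414 bases apart on chromosome X. The bases between the Col4a1 and Col4a2 starts and the 120 bases before the starts of Col4a4, Col4a3, Col8a1 and Col11a1 are printed 5′ to 3′ on the strand given, the last 2 being the promoters of a short-chain network gene found mainly in fibroblasts and of a fibrillar gene shared by fibroblasts and oligodendrocyte precursors. Capitals mark the motifs GGGCGG or CCGCCC (a GC box) and CCAAT or ATTGG, searched with TATAAA on both strands:
Col4a1 and Col4a2 (chr16:84885521-84885596, plus): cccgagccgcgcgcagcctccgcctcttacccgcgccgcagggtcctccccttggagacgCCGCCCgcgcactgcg
Col4a4 (chr9:91323578-91323697, minus): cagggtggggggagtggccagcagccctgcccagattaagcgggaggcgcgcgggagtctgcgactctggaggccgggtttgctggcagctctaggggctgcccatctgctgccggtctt
Col4a3 (chr9:91323870-91323989, plus): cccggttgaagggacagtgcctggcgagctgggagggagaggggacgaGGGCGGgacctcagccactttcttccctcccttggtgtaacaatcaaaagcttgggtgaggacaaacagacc
Col8a1 (chr11:56246662-56246781, plus): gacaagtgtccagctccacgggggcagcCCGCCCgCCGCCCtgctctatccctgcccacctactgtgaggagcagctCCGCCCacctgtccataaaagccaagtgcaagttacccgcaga
Col11a1 (chr2:204509016-204509135, plus): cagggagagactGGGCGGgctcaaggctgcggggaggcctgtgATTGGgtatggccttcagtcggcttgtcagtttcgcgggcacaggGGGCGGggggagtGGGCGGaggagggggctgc
The table held a promoter for 34 of the 43 genes. In the 250 bases before the start, the GC box was present in 19 of the 34 (55.9%) and in 32.4% of all 27457 promoters, CCAAT in 11 (32.4%) and in 34.3%, and TATAAA in 4 (11.8%) and in 13.1%. These matches describe letters only.

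In total 55449 of 68658 deposited cells were kept, with a median of 2745 to 10814 UMIs per cell in the 8 libraries, and 555 of 68095 barcodes occurred in more than 1 library. Cells were assigned by the share of a cell type's markers they contained, and none of the lists held a collagen gene. This gave 1827 fibroblasts, 434 endothelial cells, 96 mural cells, 7249 glial cells (astrocytes, oligodendrocytes and their precursors), 29594 macrophages (a gate that can include microglia), 7126 neutrophils, 1395 T or NK cells and 6656 cells with no type. The defining markers of fibroblasts, macrophages and endothelial cells followed the gates: Dcn was at a mean of 6492 CPM in fibroblasts and 24.1 in macrophages, C1qa at 3506 in macrophages and 43.5 in fibroblasts, and Cldn5 at 4647 in endothelial cells and 0.709 in fibroblasts. The sham libraries stood apart from each other: sham 1 was 53.8% neutrophils with 285 fibroblasts, and sham 2 was 89.9% macrophages with 5 fibroblasts, so levels in fibroblasts have 1 sham library. Oligodendrocytes made up 94.2% of glial cells in sham 1 and 30.9% in sham 2.

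The kept cells held 409609 collagen UMIs, and a few genes accounted for nearly all of them. Col3a1 (ENSRNOG00000003357), the single chain of type III collagen, had 129587 UMIs and Col1a1 (ENSRNOG00000003897), the main chain of type I collagen, had 115201, together 59.8% of the total. The first 12 genes held 93.8%; after these 2 they were Col8a1 with 40706, Col6a2 with 19778, Col4a1 with 17867, Col15a1 with 12276, Col5a3 with 10470, Col12a1 with 8954, Col16a1 with 8652, Col11a1 with 8240, Col18a1 with 6854 and Col5a2 with 5705. Of the 43 genes, 12 had fewer than 100 UMIs and are not described further by type, apart from Col4a6 and Col28a1. Among the other 31, fibroblasts held over 50% of the UMIs of 15, glial cells of 7 and macrophages of 2, the 2 being Col4a4 and Col4a3.

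**Figure D1:**
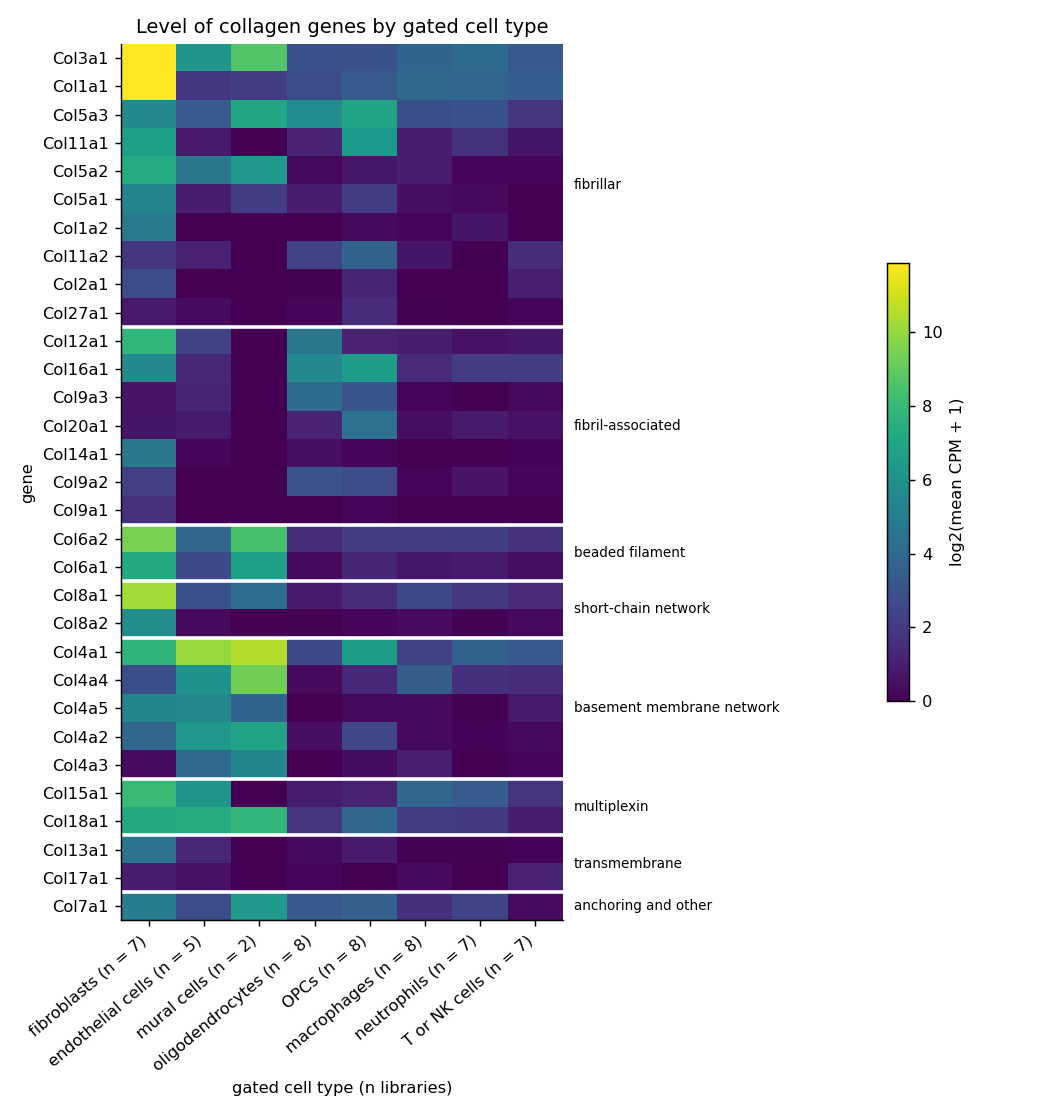
Mean level over libraries, as log2(CPM + 1), of the 31 collagen genes with at least 100 UMIs (rows, grouped by structural family) in 8 cell types (columns). Brighter colours are higher levels: Col3a1 and Col1a1 are brightest in fibroblasts, Col4a1 in mural and endothelial cells, and Col16a1, Col9a3 and Col20a1 in the oligodendrocyte lineage.

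Fibroblasts were 3.29% of kept cells and held 78.8% of all collagen UMIs when libraries were pooled. By library the share was 73.7% and 6.31% in sham, 81.9% and 45.0% in mild, 80.1% and 55.8% in moderate and 94.3% and 82.1% in severe, a mean of 64.9% ± 28.5 (SD, n = 8). The lowest value was that of sham 2, where macrophages held 51.2%. Pooled over libraries, macrophages held 8.58%, glial cells 7.25%, endothelial cells 1.66%, mural cells 0.987% and cells with no type 1.99%. These shares follow the number of cells of each type captured as well as their levels. Of the fibroblasts, 823 also held at least 3 markers of another list. With such cells taken out of every type but kept in the total, the mean fibroblast share was 28.9%, and sham 2 stayed at 6.31%. The 28.9% is therefore not the fibroblast share among the cells left.

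**Figure D2:**
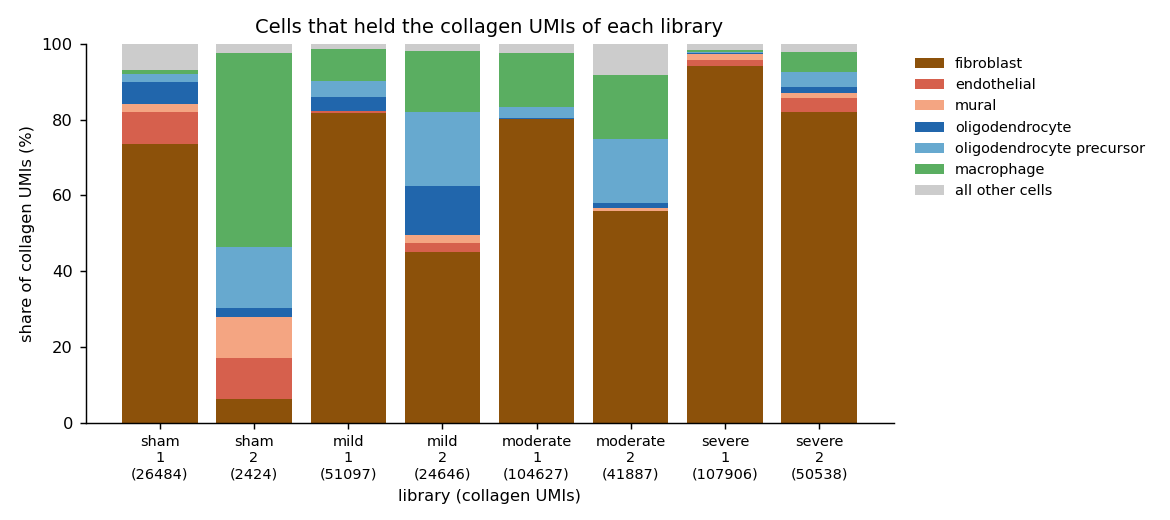
Percent of each library's collagen UMIs found in each gated cell type, as stacked bars that sum to 100% (y axis), for the 8 libraries (x axis). Fibroblasts hold between 6.31% in sham 2 and 94.3% in severe 1.

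Summed over the 43 genes, the collagen level in fibroblasts was 5011 CPM in sham 1, 10542 and 9692 in mild, 18590 and 12055 in moderate and 13170.4 and 7699 in severe, a mean of 10966 ± 4322 (SD, n = 7). It was 1639 ± 598 CPM in endothelial cells (n = 5), 3985 and 3289 in the mural cells of the sham libraries, 2620 in the Schwann cells of sham 1, 330.2 ± 110.0 in glial cells (n = 8), 85.3 ± 60.4 in macrophages (n = 8), 83.9 ± 39.2 in neutrophils (n = 7) and 53.8 ± 29.8 in T or NK cells (n = 7). The lowest fibroblast value, that of sham 1, was above the highest value of every other type.

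Fibrillar chains were led by Col3a1 and Col1a1. In fibroblasts Col3a1 was at 1779 CPM in sham 1, 2672 and 2182 in mild, 6921 and 3547 in moderate and 5591 and 3429 in severe. Col1a1 was at 1093 in sham 1, 3411 and 3953 in mild, 7087 and 4432 in moderate and 4117 and 1762 in severe. Both were lowest in the single sham library and highest in moderate 1, and the severe libraries lay far apart for Col1a1. In endothelial cells Col1a1 was at 1.95 and 0 CPM in sham, 8.17 in mild 2 and 2.31 and 0.773 in severe, and Col3a1 was at 8.47, 68.9, 147, 38.2 and 102 CPM in the same order. In fibroblasts Col5a2, a chain of type V collagen, was at 96.3 CPM in sham 1 and 91.0 and 95.2 in mild. It was at 229 and 174 in moderate and 193 and 204 in severe. All 4 moderate and severe libraries thus lay above the other 3, and the share of all genes with such a separation was not counted. Col11a1, a type XI chain that regulates fibril diameter, was at 20.03 in sham 1, 55.9 and 27.1 in mild, 211 and 58.8 in moderate and 261 and 113 in severe, with the replicates of each injured group well apart.

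Col11a1 and Col5a3 were fibrillar genes that were not led by fibroblasts alone. Glial cells held 44.2% of Col11a1 UMIs, and nearly all of these, 43.0% of the total, were in oligodendrocyte precursors, where its mean was 87.0 ± 42.5 CPM (n = 8) against 1.16 ± 1.32 in oligodendrocytes. Col5a3, a type V chain, was at 21.6 in sham 1, 22.2 and 54.2 in mild, 115 and 68.1 in moderate and 36.8 and 24.9 CPM in severe in fibroblasts. In glial cells Col5a3 was at 39.2 and 57.8 in sham, 84.5 and 74.3 in mild, 76.3 and 77.2 in moderate and 46.4 and 62.5 in severe. The glial values thus lay between 39.2 and 84.5, within the range of the fibroblast values, and glial cells held 58.4% of its UMIs. Macrophages held 22.3% of Col5a3 UMIs and fibroblasts 12.5%. In the mural cells of the sham libraries Col5a3 was at 214 and 50.2 CPM.

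Fibril-associated chains split between cell types in the same way. Col12a1, which binds the surface of type I fibrils, was at 192 in sham 1, 147 and 145 in mild, 302 and 276 in moderate and 398 and 156 CPM in severe in fibroblasts, and fibroblasts held 81.6% of its UMIs. Its glial remainder was in oligodendrocytes, at 24.7 ± 19.9 CPM (n = 8), against 1.21 ± 1.40 in their precursors. Col14a1, another fibril-binding chain, had 95.3% of its UMIs in fibroblasts, the highest share among genes with at least 100 UMIs. Col16a1 was instead mainly glial, with 71.0% of its UMIs there: it was at 40.3 and 77.9 in sham, 74.8 and 87.1 in mild, 66.3 and 83.1 in moderate and 54.5 and 44.2 CPM in severe in glial cells, and at 17.0 in sham 1, 51.4 and 53.3 in mild, 75.2 and 58.3 in moderate and 53.2 and 33.4 in severe in fibroblasts. Col9a3, a chain of type IX collagen best known from cartilage, had 93.0% of its UMIs in glial cells, 65.2% in oligodendrocytes alone. Col20a1 had 74.9% in glial cells and 69.2% in precursors.

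Among short-chain network and beaded filament genes, Col8a1, a chain of the hexagonal type VIII network, had 91.1% of its UMIs in fibroblasts. It was at 389 CPM in sham 1, 2274 and 611 in mild, 1671 and 1043 in moderate and 1408 and 1004 in severe in fibroblasts, and the largest gap between replicates was that of the mild libraries. Col6a2, a type VI chain that forms microfilaments near the cell surface, was at 478 in sham 1, 1075 and 1069 in mild, 833 and 609.6 in moderate and 374 and 398 in severe, with mild highest and both severe libraries lowest. Its values in mural cells, 200.3 and 477 CPM in the sham libraries, reached the lower end of that range.

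Basement membrane and multiplexin genes were spread over vascular, glial and fibroblast cells. Col4a1, an obligatory chain of basement membranes, was at 1138 and 384 in sham, 1639 in mild 2 and 1153 and 867 CPM in severe in endothelial cells, and at 1851 and 1042 in the mural cells of the sham libraries. In fibroblasts it was at 169.5 in sham 1, 87.9 and 381 in mild, 249.9 and 466 in moderate and 93.6 and 84.3 in severe, below endothelial cells in each of the 4 libraries with both types. In glial cells Col4a1 was at 8.20 and 65.1 in sham, 43.1 and 37.6 in mild, 68.2 and 108 in moderate and 52.8 and 51.5 in severe. Oligodendrocytes were 94.2% of glial cells in sham 1. Precursors were at 100.1 ± 19.8 CPM and oligodendrocytes at 5.08 ± 3.34 (n = 8 each), and within precursors sham 1 was at 108. The part of the mix of glial cells in the differences between libraries was not tested.

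Col18a1, the multiplexin that contains endostatin, was at 29.3 and 97.9 in sham, 221 in mild 2 and 282 and 179 CPM in severe in endothelial cells, both sham values being below the others. The share of all genes with such a separation was not counted. In fibroblasts Col18a1 was at 116 in sham 1, 105 and 262 in mild, 132 and 278 in moderate and 53.5 and 88.9 in severe. Col15a1, the other multiplexin, was at 145 in sham 1, 227 and 343 in mild, 289 and 542 in moderate and 123 and 106 CPM in severe in fibroblasts, where it had 46.9% of its UMIs. Macrophages held 45.4% of Col15a1 UMIs, although its mean level there was 14.3 ± 4.32 CPM (n = 8).

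**Figure D3:**
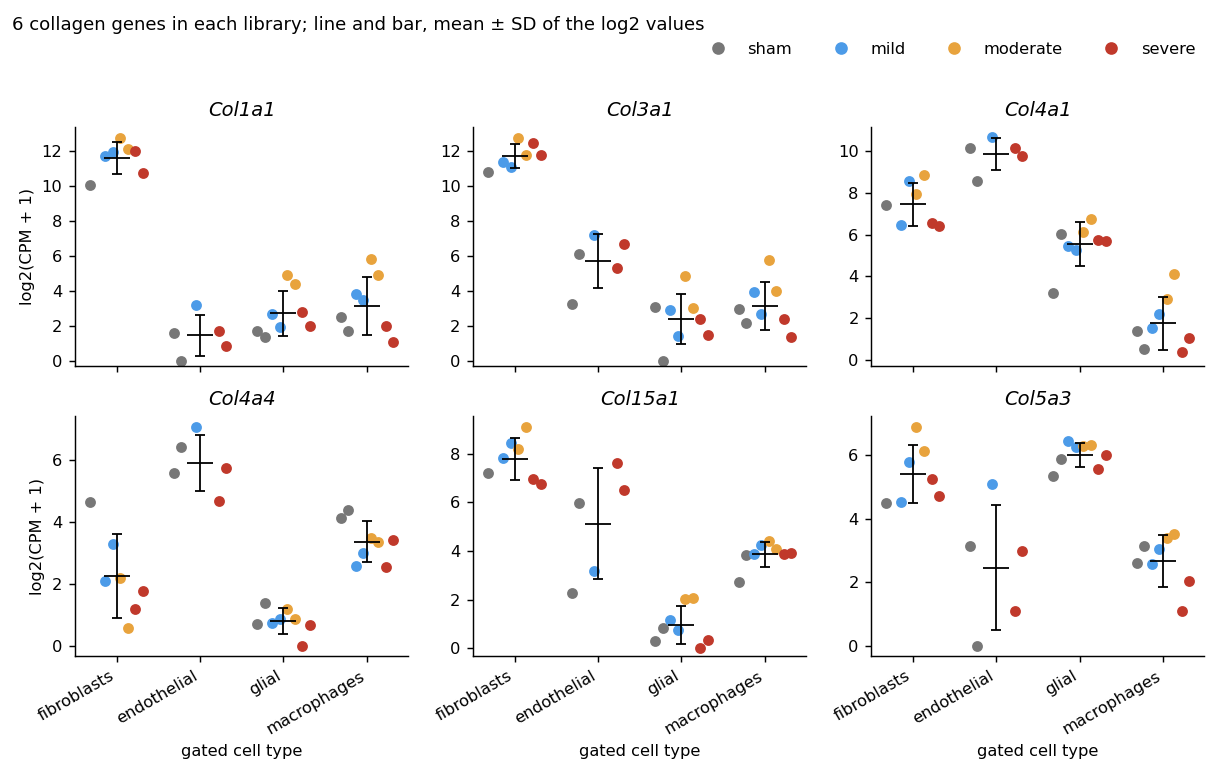
Level of 6 collagen genes by library (points), as log2(CPM + 1) on the y axis, in fibroblasts, endothelial cells, glial cells and macrophages (x axis), with mean ± SD over libraries. Col1a1 and Col3a1 stand far above all other types in fibroblasts, Col4a1 is highest in endothelial cells, the Col5a3 values of fibroblasts and glial cells overlap, and Col4a4 is highest in endothelial cells.

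The cell types were compared by edgeR's quasi-likelihood test on UMIs summed by library and type, with the library as a term and Benjamini-Hochberg adjustment over 12994 genes, 28 of them collagens. Between fibroblasts and macrophages, 23 collagen genes were higher in fibroblasts, against 26.9% of all genes tested, and 2 were lower, against 35.6%. The median log2 fold change was 6.47 for the 28 collagens and -0.16 for all genes. Among the largest differences were those of Col14a1 (log2 fold change 8.70, SE 0.49, adjusted p = 8.2e-12), Col3a1 (8.23, SE 0.65, adjusted p = 5.5e-10), Col8a1 (8.14, SE 0.66) and Col1a1 (8.05, SE 0.45, adjusted p = 7.3e-12), and Col15a1 differed by a log2 fold change of 3.64 (SE 0.48, adjusted p = 9.8e-07). The 2 lower genes were Col4a4 (-1.31, adjusted p = 0.00931) and Col4a3 (-1.77, adjusted p = 0.0192). Neither was called when libraries were scaled by their total UMIs alone, a setting that moved the median of all genes from -0.16 to 0.27 in this comparison, or with cells holding at least 3 markers of another list left out, and the call of Col4a3 was also lost without moderate 1 or severe 2.

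Fibroblasts exceeded endothelial cells in 17 of the 28 genes, against 22.9% of all genes. They were below them in 4, close to the share of all genes, 16%. The 4 were Col4a1, Col4a2, Col4a3 and Col4a4, all basement membrane chains. The other basement membrane pair, Col4a5 and Col4a6, was not among them and had 74.9% and 81.4% of its UMIs in fibroblasts. Col4a1 was lower in fibroblasts by a log2 fold change of -2.80 (SE 0.52, adjusted p = 0.00022), while Col1a1 was higher by 9.93 (SE 0.68) and Col3a1 by 5.21 (SE 0.73). The median over the 28 genes was 3.06, and 0.15 over all genes. Against glial cells, 22 collagens were higher in fibroblasts (28.4% of all genes) and 3 were lower (27.4%), namely Col11a2, Col20a1 and Col9a3, with medians of 4.54 for the collagens and -0.03 for all genes. The leading differences were in Col8a1 (log2 fold change 9.74, SE 0.73), Col3a1 (9.57, SE 0.69) and Col1a1 (9.32, SE 0.46).

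Endothelial cells exceeded macrophages in 12 genes (17.9% of all genes) and were below them in 1, Col1a1 (32.4%), with medians of 1.88 and -0.33. The Col1a1 call was lost under total-UMI scaling, with at least 4 markers required, and without any 1 library but mild 2 or severe 2. The leading genes included Col4a1 (log2 fold change 8.45, SE 0.62, adjusted p = 3.9e-10), Col4a2 (8.22, SE 0.52), Col4a5 (7.13, SE 0.68) and Col18a1 (5.91, SE 0.53). Compared with glial cells, 11 genes were higher in endothelial cells (22.6% of all genes) and 7 lower (29% of all genes), with medians of 1.13 and -0.16. Col4a3 (log2 fold change 7.29, SE 0.72), Col15a1 (6.27, SE 0.67) and Col4a4 (6.14, SE 0.53) were among the higher genes, and Col11a1 (-6.70, SE 1.41) was among the lower.

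Glial cells exceeded macrophages in 14 genes (32.1% of all genes) and were below them in 7 (38.7%), with medians of 1.33 and -0.10. The higher genes included Col9a3 (log2 fold change 5.94, SE 0.62, adjusted p = 2.1e-08), Col11a1 (5.004, SE 0.52), Col16a1 (4.98, SE 0.41, adjusted p = 5.6e-10) and Col20a1 (4.08, SE 0.35), and Col4a1 was higher by 3.77 (SE 0.50). The lower genes were led by Col4a3 (-4.53, SE 0.63), Col15a1 (-4.36, SE 0.54, adjusted p = 3.0e-07) and Col4a4 (-4.29, SE 0.44, adjusted p = 2.1e-08), followed by Col8a1, Col3a1, Col1a1 and Col8a2. With total-UMI scaling, which moved the median of all genes from -0.10 to 0.55, 15 collagens were higher and 3 lower. Only 2 were lower with cells holding markers of another list left out, and 4 without mild 1 or without moderate 1.

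**Figure D4:**
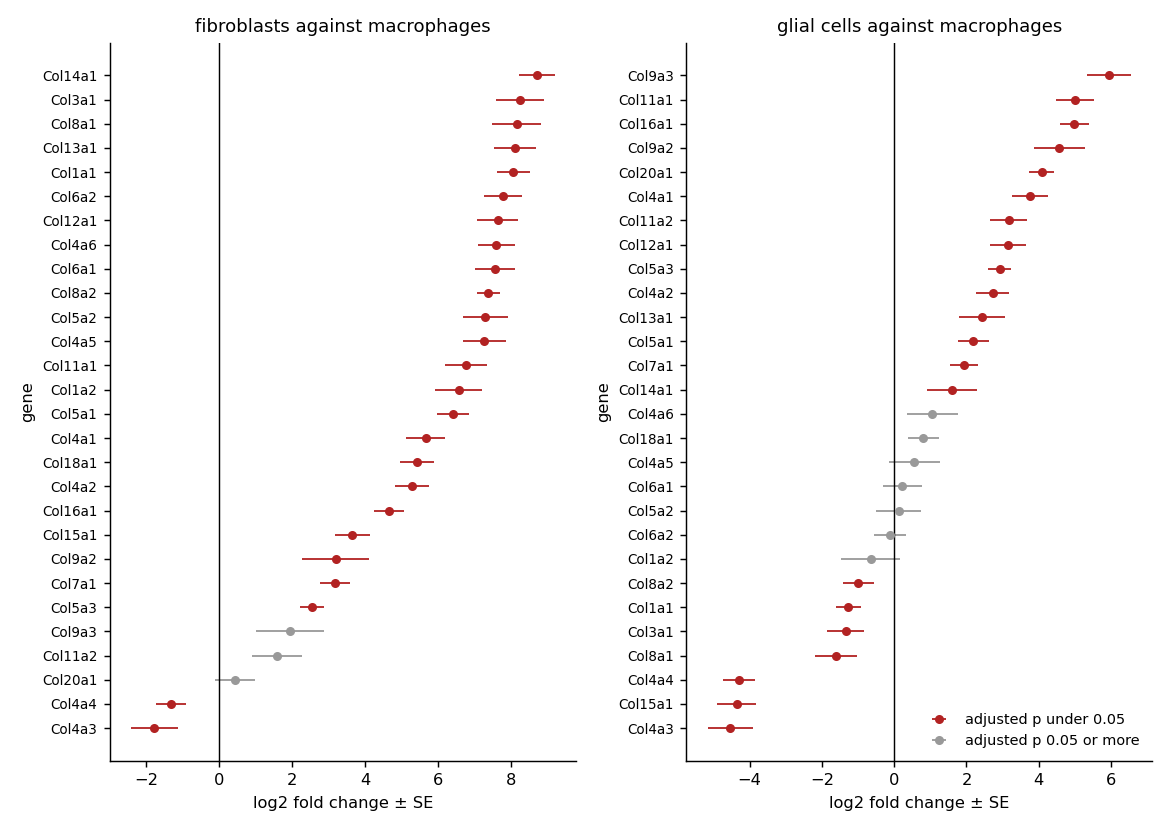
Log2 fold change ± SE (x axis) of the collagen genes tested (y axis) in fibroblasts against macrophages and in glial cells against macrophages, with genes at an adjusted p under 0.05 in red. Nearly all genes lie right of 0 for fibroblasts, while glial cells are split, with Col9a3 at 5.94 and Col4a3 at -4.53.

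The fibroblast collagens were also detected at low levels in macrophages, neutrophils and T or NK cells. Col1a1 in macrophages was at 4.69 and 2.24 CPM in sham, 13.1 and 10.1 in mild, 55.9 and 29.6 in moderate and 2.92 and 1.08 in severe. In neutrophils it was at 6.28 in sham 1, 7.33 and 10.6 in mild, 43.5 and 15.8 in moderate and 8.52 and 1.91 in severe, and in T or NK cells at 3.32 in sham 1, 5.44 and 0 in mild, 37.5 and 20.7 in moderate and 5.64 and 1.69 in severe. All 3 types were highest in moderate 1, where the fibroblast level was also highest. The macrophage level was 0.0613% to 0.789% of the fibroblast level of the same library for Col1a1 (median 0.385%) and 0.0461% to 0.776% for Col3a1 (median 0.385%).

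When each cell was thinned to 1000 UMIs, at least 1 Col1a1 UMI was found in 77.3% of fibroblasts (95% Wilson interval 75.4% to 79.2%), 1.19% of macrophages (1.07% to 1.32%), 0.955% of T or NK cells (0.559% to 1.63%), 0.750% of neutrophils (0.556% to 1.013%), 1.05% of glial cells and 0.410% of erythroid cells. Thinning left out 17 fibroblasts, 1025 macrophages and 34 T or NK cells with fewer UMIs. Without thinning the Col1a1 shares were 95.4% of fibroblasts, 8.46% of macrophages and 2.15% of T or NK cells, at median depths of 14900, 10539 and 3187 UMIs. The intervals cover counting error only. Pooled over libraries, the macrophage share of Col1a1 lay within the interval of T or NK cells and above that of neutrophils. The mean over libraries was 0.773% ± 1.00 in macrophages (SD, n = 8). It was 1.15% ± 1.79 in neutrophils and 1.18% ± 1.53 in T or NK cells (n = 7 each), so the order depended on the pooling.

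Col15a1 and Col4a4 did not follow that ratio, and they were not the only such genes. Macrophages held 2333 Col5a3 UMIs and fibroblasts 1305. After thinning, Col5a3 was found in 0.718% of macrophages (0.626% to 0.822%) and in 0 of 1361 T or NK cells. In macrophages Col15a1 was at 5.59 and 13.2 CPM in sham, 13.7 and 17.9 in mild, 20.3 and 16.2 in moderate and 13.8 and 14.02 in severe, which was 2.99% to 13.3% of the fibroblast level. Thinned to 1000 UMIs it was found in 1.35% of macrophages (1.22% to 1.49%) and 0.147% of T or NK cells (0.0403% to 0.534%). The pooled neutrophil share was 0.536% (0.376% to 0.764%), but the mean over libraries was 1.21% in neutrophils and 1.20% in macrophages. Neutrophils were at 1.78 CPM in sham 1, 11.9 and 0 in mild, 6.21 and 15.8 in moderate and 15.8 and 15.2 in severe. These neutrophil levels rest on at most 26 Col15a1 UMIs per library. Col4a4, whose protein belongs to the basement membrane network of the kidney glomerulus and the inner ear, was at 16.4 and 20.05 CPM in sham, 4.97 and 7.08 in mild, 10.2 and 9.30 in moderate and 4.89 and 9.73 in severe in macrophages. This was above the fibroblast level in 5 of 7 libraries, although fibroblasts held only 156 Col4a4 UMIs in all. It was found in 0.868% of thinned macrophages (0.767% to 0.982%), 0.220% of T or NK cells (0.0750% to 0.646%) and 0.0708% of glial cells, but also in 3.32% of endothelial and 44.3% of mural cells. Per cell its level was far higher in mural cells, at 787 and 477 CPM in the sham libraries, and in endothelial cells, at 46.2 and 83.4 in sham, 131 in mild 2 and 24.3 and 52.6 in severe, than in macrophages. Macrophages were the most numerous type and held 3158 of its 3882 UMIs, and 254 of the 326 UMIs of Col4a3, its partner across the shared promoter.

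**Figure D5:**
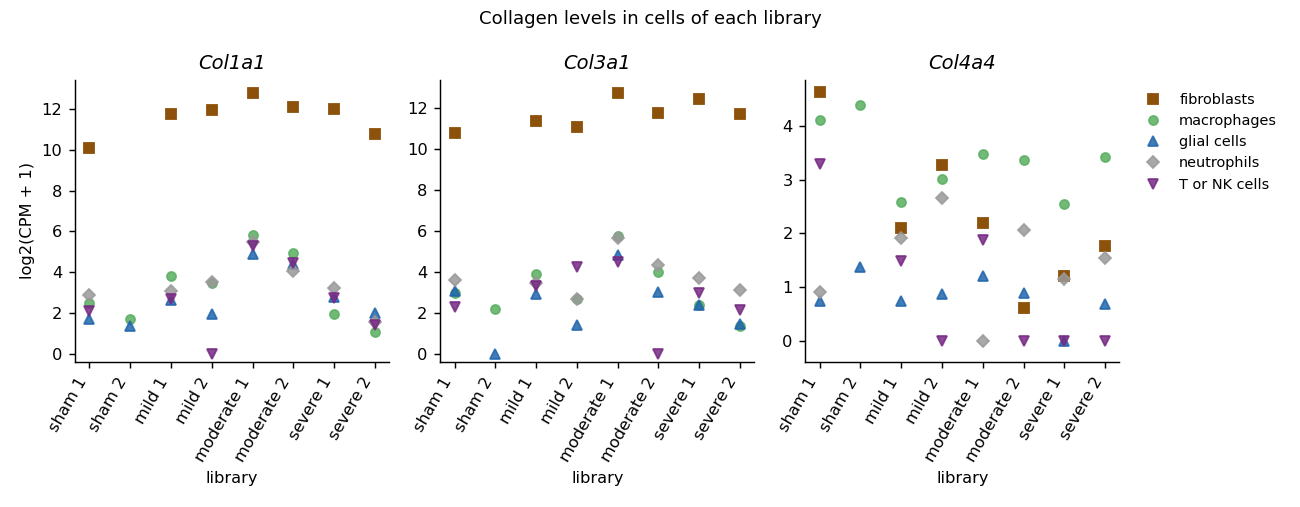
Level, as log2(CPM + 1) on the y axis, of Col1a1, Col3a1 and Col4a4 in each of the 8 libraries (x axis) in fibroblasts, macrophages, glial cells, neutrophils and T or NK cells. Col1a1 and Col3a1 in macrophages, neutrophils, glial cells and T or NK cells are highest in moderate 1, while Col4a4 in macrophages is highest in sham, at 16.4 and 20.05 CPM.

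Chains that assemble together were counted in unequal numbers. In fibroblasts 104184 UMIs were assigned to Col1a1 and 1203 to Col1a2, a pooled ratio of 86.6, although type I collagen contains both chains. The ratio ranged from 36.4 to 451 over the 6 libraries where it could be formed, and 875 of the Col1a2 UMIs came from severe 1. Col4a1 exceeded Col4a2 by a pooled factor of 14.5 in fibroblasts (10.8 to 29.1 over 7 libraries), 12.8 in endothelial cells (10.99 to 15.3 over 4), 19.4 in glial cells (13.7 to 30.6 over 5) and 18.2 in macrophages (11 to 23.8 over 3). In fibroblasts Col8a1 exceeded Col8a2 by 20.7 (6.36 to 34.5 over 7) and Col6a2 exceeded Col6a1 by 4.72 (2.41 to 7.26 over 7). Col4a4 exceeded Col4a3 by 12.4 in macrophages (6.35 to 15.7 over 5). The ratios compare counted 3′ ends, and the cause of the unequal counts was not tested.

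Injury groups were compared within each type by the same test with all 4 groups in a single fit. In fibroblasts no collagen gene passed the test in mild, moderate or severe against sham (0 of 29 tested in each), where 1.41%, 3.06% and 2.8% of all genes passed. At an unadjusted p under 0.05 there were 4, 10 and 11 collagens, against 22.4%, 21.5% and 21.7% of all genes, and DESeq2 called 0, 4 and 5. The share of all genes called by DESeq2 is not given, so its counts cannot be set beside the shares above. The sham arm was a single library, whose spread was taken to be that of the other groups. Col1a1 had a log2 fold change of 2.14 (SE 0.57, adjusted p = 0.091) in moderate against sham and 1.77 (SE 0.52, adjusted p = 0.108) in the mean of the injured groups, and it was higher in 6 of 6 injured libraries. Col3a1 and Col8a1 were also higher than sham 1 in 6 of 6 libraries. Their log2 fold changes of 1.03 and 1.69 in the mean of the injured groups did not pass. The share of all genes higher than this single sham library in every injured library was not counted.

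In the mean of the injured groups 1 collagen gene passed in fibroblasts, where 3.67% of all genes did. Col4a4 was at 23.9 CPM in sham 1, 3.28 and 8.74 in mild, 3.55 and 0.516 in moderate and 1.29 and 2.41 in severe, a log2 fold change of -3.15 (SE 0.57, adjusted p = 0.0338). It was lower in 6 of 6 injured libraries, against 1 sham library, and its 156 fibroblast UMIs are few. The share of all genes without such overlap was not counted, here or for severe against moderate below. The call was lost when mild 1 or severe 1 was left out. The 8 mural markers summed to 24.4 CPM in sham 1 fibroblasts and 54.7 to 113 in the injured libraries, the 10 endothelial markers to 94.3 and 68.9 to 248, and the 8 neutrophil markers to 3892 in sham 1 and 9.45 to 215 in the others; the part of neutrophil transcripts was not tested. Between severe and moderate, a comparison added after the data were seen, Col15a1 passed with a log2 fold change of -1.42 (SE 0.33, adjusted p = 0.04996), where 5.62% of all genes passed, and both severe values, 123 and 106 CPM, lay below both moderate values. This call was lost when any mild, moderate or severe library was left out, and 4 other collagens passed without severe 2.

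In macrophages 4 of 25 collagen genes were higher in moderate than in sham, where 2.61% of all genes passed in either direction. They were Col1a1 (log2 fold change 3.69, SE 0.57, adjusted p = 0.0334), Col8a1 (5.30, SE 1.06, adjusted p = 0.0478), Col12a1 (3.97, SE 0.60, adjusted p = 0.0334) and Col18a1 (3.27, SE 0.48, adjusted p = 0.0333). Col12a1 was at 0.180 and 0.137 CPM in sham and 2.46 and 2.72 in moderate, and Col18a1 at 0.541 and 0.870 in sham, 3.13 and 2.94 in mild, 5.53 and 10.5 in moderate and 1.18 and 0.961 in severe. Col8a1 was at 0.901 and 0.0915 in sham and 18.0 and 7.93 in moderate. These sham levels rest on few UMIs: 5 and 2 for Col8a1, 1 and 3 for Col12a1 and 3 and 19 for Col18a1. Col3a1, at 53.7 and 15.0 CPM in moderate and 6.85 and 3.52 in sham, did not pass (adjusted p = 0.0956). The count of 4 fell to 0 without either mild library or moderate 2, to 1 without moderate 1 or severe 2, and to 0 when sham and moderate were fitted alone.

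Fibroblast marker transcripts were counted in the macrophage sums. All 10 fibroblast markers were detected there, and they summed to 187 and 10.5 CPM in sham, 52.9 and 23.7 in mild, 65.3 and 39.5 in moderate and 43.6 and 23.2 in severe, so that both moderate values lay between the sham values. Relative to the same markers in fibroblasts of the same library this was 0.836% in sham 1, 0.464% and 0.184% in mild, 0.886% and 0.896% in moderate and 0.389% and 0.188% in severe, highest in moderate. The Col1a1 level in glial cells, neutrophils and T or NK cells was highest in the moderate libraries as well, as given above. In glial cells Col18a1 was likewise highest in moderate, at 11.1 and 30.7 CPM, against 0.414 and 4.82 in sham. Precursors held 803 of its 909 glial UMIs. Oligodendrocytes were 94.2% and 30.9% of glial cells in sham and 18.2% and 12.2% in moderate. In moderate T or NK cells Col18a1 and Col8a1 were at 0 and Col12a1 at 2.68 and 0 CPM. In moderate neutrophils Col12a1 was at 0, Col18a1 at 0 and 9.49 and Col8a1 at 0 and 3.16, on at most 3 UMIs. The 8 neutrophil markers summed to 3538 CPM in the macrophages of sham 1 and 72.3 to 281 in those of the other libraries. The part of transcripts from other cells in the macrophage differences was not tested. These differences are of the whole gate, which can include microglia, and a change in its mix of cells was not tested.

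In mild and in severe against sham 0 of 25 collagen genes passed in macrophages, where 5.44% and 7.43% of all genes did. At an unadjusted p under 0.05 there were 7 and 2, against 28.8% and 28.3% of all genes. DESeq2 called 5 and 1, and the share of all genes it called is not given. In the mean of the injured groups Col18a1 passed (log2 fold change 2.06, SE 0.43, adjusted p = 0.0268), where 9.88% of all genes did, and it was higher in 6 of 6 injured libraries; the call was lost without either mild library, moderate 2 or either severe library. The count was 4 without sham 1, 3 without sham 2 and 2 without severe 2. Col4a4 was lower in all 6 injured libraries than in either sham library, with a log2 fold change of -1.13 that did not pass (adjusted p = 0.0592). The share of all genes with no overlap between injured and sham libraries was not counted, here or for Col18a1. In severe against moderate, added after the data were seen, 3 genes were lower where 2.06% of all genes passed: Col1a1 (-3.98, adjusted p = 0.0170), Col12a1 (-3.41, adjusted p = 0.0209) and Col18a1 (-2.37, adjusted p = 0.0403). The count rose without either sham library and fell without any 1 of the other libraries, and all calls were lost without moderate 1 or either severe library. The share of all genes called in those fits is not given.

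In endothelial cells only severe could be set against sham with 2 libraries each, and 0 of 14 collagens passed, where 0.807% of all genes did; 4 had an unadjusted p under 0.05 (14.7% of all genes) and DESeq2 called 1, and 3 passed without sham 2. Col18a1 had a log2 fold change of 2.29 (adjusted p = 0.108) and Col4a1 one of 0.64. No moderate library held 20 endothelial cells. The share of all genes called by DESeq2 is not given, here or for the glial cells below. In glial cells 0 of 24 collagens passed in the mean of the injured groups, where 5.92% of all genes did; 5 had an unadjusted p under 0.05 (29.2% of all genes) and DESeq2 called 2. The largest log2 fold changes were 2.90 for Col18a1 (adjusted p = 0.0855), 2.09 for Col4a2 (adjusted p = 0.104) and 1.65 for Col1a1 (adjusted p = 0.0781), genes chosen after their values were seen. Among the collagens of highest mean level they were 0.17 for Col16a1, 0.49 for Col5a3 and 0.79 for Col4a1. Within oligodendrocyte precursors, a fit added after the data were seen, these 3 were negative. Col16a1 (-0.75, adjusted p = 0.0454) and Col5a3 (-1.39, adjusted p = 0.0360) passed the test as lower after injury, and Col4a1 (-0.14) did not pass. The sham libraries held only 74 and 75 precursors, and the share of all genes called in this fit is not given. In glial cells the count rose from 0 without sham 2, and the share of all genes called in that fit is not given.

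Genes that act on collagen were taken from a list of 43, of which 40 were in the files: enzymes that modify chains, chaperones, propeptide proteases, cross-linking oxidases and receptors. Of 36 tested, 32 were higher in fibroblasts than in macrophages (26.9% of all genes) and 2 were lower (35.6%), Tmem38b and Colgalt1, and 28 were higher than in endothelial cells (22.9%) and 1 was lower (16%). The call for Tmem38b was lost when libraries were scaled by size only. Against glial cells 32 were higher (28.4%) and 3 lower (27.4%). Endothelial cells had 9 higher (17.9%) and 6 lower (32.4%) than macrophages, and 9 higher (22.6%) and 2 lower (29%) than glial cells. Glial cells had 12 higher (32.1%) and 13 lower (38.7%) than macrophages, close to the shares of all genes. Serpinh1, which encodes the collagen chaperone HSP47, was at 685 CPM in sham 1, 2284 and 1728 in mild, 2181 and 1965 in moderate and 1517 and 1337 in severe in fibroblasts. In the mean of the injured groups 3 of 35 rose in fibroblasts, where 3.67% of all genes passed: Loxl2, a cross-linking oxidase (log2 fold change 2.05, SE 0.29, adjusted p = 0.0143), Serpinh1 (1.31, SE 0.27, adjusted p = 0.0463) and P3h1, a prolyl 3-hydroxylase (1.24, SE 0.26, adjusted p = 0.0459). Loxl2 was at 29.5 CPM in sham 1, 124 and 162 in mild, 278 and 254 in moderate and 65.0 and 52.7 in severe, and it also rose in moderate against sham (2.91, SE 0.32, adjusted p = 0.0116). Pcolce, an enhancer of propeptide cleavage, was higher in severe than in moderate (1.95, SE 0.39, adjusted p = 0.0419), at 1624 and 1650.4 against 743 and 386 CPM. In that comparison, where 5.62% of all genes passed, Ctsk, a collagen-degrading protease, was also higher (1.47, SE 0.20, adjusted p = 0.0168) and Loxl2 was lower (-1.75, SE 0.23, adjusted p = 0.0146). Loxl2 was the 1 gene of the list to pass in mild and in moderate against sham, where 1.41% and 3.06% of all genes passed. In severe 0 passed, against 2.8% of all genes, and 16 of 35 had an unadjusted p under 0.05, against 21.7%. The calls of Serpinh1 and of Pcolce were lost when any mild, moderate or severe library was left out, and that of P3h1 when any of them but severe 2 was. The Ctsk and Loxl2 calls between severe and moderate were lost without any 1 library of those groups, and the Loxl2 call in moderate without moderate 2. The rise of Loxl2 in the mean of the injured groups kept its call in every fit that left out 1 injured library.

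In macrophages 4 of 31 genes of that list passed in the mean of the injured groups, not far above the 9.88% of all genes that did. This count therefore does not show a change particular to the list. Adamts2, a propeptide protease, rose (log2 fold change 3.46, SE 0.68, adjusted p = 0.0241) from 0.180 and 0.183 CPM in sham to between 1.23 and 3.65 in the 6 injured libraries, and Mrc2, an endocytic collagen receptor, fell by 2.25 (SE 0.39, adjusted p = 0.0197) from 4.15 and 4.30 to between 0.393 and 1.35. Ctsk rose by a log2 fold change of 1.91 (SE 0.42, adjusted p = 0.0324), from 37.1 and 15.7 CPM to between 49.2 and 117, and Fap, a serine protease of activated fibroblasts, by 2.49 (SE 0.64, adjusted p = 0.0486), from 0.180 and 0.0915 to between 0.473 and 0.756. A level of 0.180 CPM is 1 UMI in the macrophages of sham 1, and 0.0915 is 2 UMIs in those of sham 2. The sham values of Adamts2 and Fap therefore rest on very few UMIs. For these 4 genes, picked by this same comparison, the injured libraries did not overlap the sham libraries, which adds no separate support. The share of all genes without such overlap was not counted. The macrophage gate can include microglia, and a change in its mix of cells between libraries was not tested. The call of Adamts2 was lost without sham 2, either mild library or moderate 2, that of Mrc2 without sham 2 or either mild library, that of Ctsk without any library but sham 1 or mild 1, and that of Fap without any 1 library, with DESeq2 and with cells holding at least 3 markers of another list left out. In single groups 1 gene of the list passed in mild (5.44% of all genes), 1 in moderate (2.61%) and 4 in severe (7.43%) against sham, and 1 in severe against moderate (2.06%). In endothelial cells (severe against sham) and in glial cells (mean of the injured groups) 0 passed by edgeR, and 5 of 20 and 10 of 30 had an unadjusted p under 0.05, against 14.7% and 29.2% of all genes.

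The genes whose level was most like that of the summed collagens over 44 sums of library and type, by Pearson's r of log2(CPM + 1), were Nid1 (0.960), Parva (0.952), Serpinh1 (0.9496), Nr2f2 (0.947), Ppic (0.946), Akap12 (0.944), Gulp1 (0.941), Timp3 (0.937), C1qtnf2 (0.937) and Foxc1 (0.936). The sums of a library share its cells, depth and free RNA, and the values are given as a description. Nid1 encodes nidogen, which binds type IV collagen in basement membranes, and Serpinh1 is the only gene of the 10 on the list of collagen-acting genes.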

How the data were processed

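The deposited files are raw UMI counts per gene and cell, 1 filtered matrix per library, made by the authors with Cell Ranger on Rnor_6.0; the count table headers name version 5.0.1 and the supplementary methods 6.0.1, with Seurat 4.0 used downstream. Cells were kept with at most 10% mitochondrial UMIs and with UMIs and genes within 2 SD of the library mean, after the top 7.7% of Scrublet doublet scores were removed. A cell was given the type with the largest share of its markers detected, with at least 3 markers and no tie. Counts were summed by library and type (at least 20 cells) and tested with edgeR 4.0.16 in R 4.3.3 (quasi-likelihood, TMM, filterByExpr, Benjamini-Hochberg threshold 0.05), with DESeq2 1.42.0 as an alternative; printed levels are CPM of those sums and are not TMM-scaled. Scripts used Python 3.11.15 and scanpy 1.11.5 and were tested on simulated counts. For the mean of the injured groups against sham in macrophages, 0 of 64 genes changed by 1.5-fold were recovered. At 2-fold 1 of 69 was recovered, and at 4-fold 35 of 67. For fibroblasts against macrophages it was 13 of 68, 29 of 58 and 65 of 74. Injury comparisons in other cell types were not simulated. A gene that did not pass may therefore still have changed.

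The members and gene lists were chosen with earlier results of these data known. Values by library are given for the 12 collagen genes with the most UMIs. Fold changes are given for collagens past the threshold (at most the 8 largest per comparison) and the 5 of highest mean level, and for the list of collagen-acting genes by the same limits, at most 5 each way. Values by library of other genes, such as Col4a4 and Loxl2, were added after they were seen. Depth was 23573407 to 99320453 UMIs per library in kept cells. Alternatives were other gates, doublet and mitochondrial limits, scaling, filters, DESeq2, a replicate block and leaving out libraries. Endothelial cells gave no value for the mean of the injured groups, since no moderate library held enough. Col6a3 and Col21a1 were not analysed here.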

Additional observations from a re-analysis of the deposited data

Results flagged for a closer look

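Cells with no gated type, which entered no comparison, held collagen UMIs above the level of the sham libraries in 3 injured libraries: their summed collagen level was 1106.2 CPM in moderate 1, 1286 in moderate 2 and 458 in severe 1, against 262 and 385 in sham. In the other injured libraries it was 216 and 309 in mild and 99.6 in severe 2, within or below the range of sham. These 6656 cells had a median of 1239 UMIs; which cells carried the collagens was not tested.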

How the results depend on the processing

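The comparisons between cell types kept their total counts within 1.5 times under every alternative run, but not all counts of lower genes, as given in the report: fibroblasts against macrophages (2, down to 0), endothelial cells against macrophages (1, down to 0) and glial cells against macrophages (7, down to 2). Leaving out single libraries gave 25 to 29 called genes for fibroblasts against macrophages, 20 to 21 against endothelial cells and 23 to 26 against glial cells, 11 to 13 for endothelial cells against macrophages, 16 to 19 against glial cells, and 18 to 22 for glial cells against macrophages. The counts within injury comparisons were less stable, and causes were not tested where the construction does not show them. Counts of collagens under alternatives, here and above, are given without the share of all genes called in the same fit. They therefore do not show a change particular to collagens.

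In fibroblasts, mild against sham had 7 calls with no filter on low counts. Moderate against sham had 1 with a mitochondrial limit of 20%, 4 with DESeq2, 1 scaled by library size only, 14 with no filter, 3 with the replicate block, 1 with only the 2 groups, and 0 to 3 without single libraries. Severe against sham had 1 with at least 4 markers, 1 with no doublet removal, 5 with DESeq2, 1 by library size, 14 with no filter, 4 with the replicate block, 4 with only the 2 groups, and 0 to 2 without single libraries. The mean of the injured groups had 0 with the strict gate (cells holding at least 3 markers of another list left out), 2 at 20%, 3 with DESeq2, 2 by library size, 12 with no filter, 3 with the block, and 0 to 2 without single libraries. Severe against moderate had 0 with at least 2 or at least 4 markers or at 20%, 5 by library size, 14 with no filter, 4 with the block, and 0 to 4 without single libraries. Leaving out sham 1 gave no value against sham.

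In endothelial cells severe against sham had 2 calls at 20%, 1 with DESeq2, 5 with no filter, and 0 to 3 without single libraries, the 3 being without sham 2. In glial cells the mean of the injured groups had 2 with DESeq2, 4 with no filter, 4 in oligodendrocyte precursors only, and 0 to 9 without single libraries, the 9 being without sham 2.

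In macrophages, mild against sham had 1 with at least 4 markers, 1 with the strict gate, 3 with no doublet removal, 2 at 20%, 5 with DESeq2, 8 with no filter, 1 with the block, and 0 to 3 without single libraries. Moderate against sham had 1 with the strict gate, 11 with DESeq2, 12 with no filter, 0 with only the 2 groups, and 0 to 6 without single libraries. Severe against sham had 1 with DESeq2, 1 with no filter and 0 to 1 without single libraries. The mean of the injured groups had 2 with at least 2 markers, 3 with no doublet removal, 3 at 20%, 7 with DESeq2, 3 by library size, 11 with no filter, 3 with the block, and 0 to 4 without single libraries. Severe against moderate had 0 with the strict gate, 13 with DESeq2, 13 by library size, 15 with no filter, and 0 to 11 without single libraries.

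The mean fibroblast share of collagen UMIs was 28.9% with the strict gate, where the cells left out stayed in the total. It was 60.7% to 73.3% without single libraries. Thinned to 500 UMIs, the shares of cells with a UMI were 61.5% for Col1a1 in fibroblasts, 0.693% in macrophages and 0.358% in T or NK cells, and in macrophages 0.405% for Col4a4 and 0.733% for Col15a1. Of 1424 fold changes under alternatives, 1237 kept their direction and side of the threshold, 143 dropped below it, 36 passed it and 8 reversed. Those were Col3a1 in fibroblasts, severe against moderate (-0.22 by library size, -0.24 without moderate 2, -0.19 without severe 1, up to 0.84 without moderate 1), and in glial cells Col16a1 (-0.14 without sham 1, 0.55 without sham 2, -0.75 in precursors only), Col5a3 (-1.39 in precursors only) and Col4a1 (-0.10 without sham 1, 2.63 without sham 2, -0.14 in precursors only). Replicate numbers were not treated as pairs in the main fits. Deviations of same-numbered libraries had r of -0.0955 to 0.212 in fibroblasts, -0.25 to 0.296 in macrophages and -0.101 to 0.0554 in glial cells. These few correlations cannot show whether same-numbered libraries shared a batch. The blocked counts show only how a shared number moves the calls. Intervals of shares rest on counting error, and collagens with under 100 UMIs were too shallow to compare.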

Other observations

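Type II and type IX chains in the fibroblasts of severe 1 came largely from a single cell. All 301 Col2a1 UMIs were in 1 of 412 cells, and the same cell held 109 of 109 Col9a1 UMIs, 150 of 154 Col9a2 UMIs and 15 of 15 Col9a3 UMIs. Col2a1 is the main chain of cartilage collagen, and the fibroblast share of its UMIs (83.4%) therefore describes that cell. The same holds for Col9a1 (90.5%), with 109 of its 114 fibroblast UMIs there. Col1a2 differed: its 875 UMIs in severe 1 were spread over 272 of 412 fibroblasts.

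Schwann cells, the myelin-forming cells of nerve roots, were numerous enough in sham 1 only. There Col28a1, a chain known from peripheral nerve, had 22 UMIs in 7 of 28 cells, and 23 of its 42 UMIs in the whole series were in Schwann cells.

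Values differed between oligodendrocyte precursors and oligodendrocytes within each library. Col11a1 was higher in precursors than in oligodendrocytes in 8 of 8 libraries and Col12a1 was higher in oligodendrocytes in 8 of 8, as levels without a test. The share of all genes that differed in the same direction in every library was not counted, so this shows nothing particular to collagens.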
